A study of Mus musculus with 6 samples.

Results

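The 10 genes described here are the Notch ligands Dll1, Dll4 and Jag1, the receptors Notch1 and Notch2, the Notch target Hes1, and the secretory fate factors Atoh1, Spdef, Gfi1 and Neurog3. They were taken by symbol from the authors' deposited comparison table. Of the 10 listed genes, 9 had a row among the 15138 genes of that table. Neurog3 had none, and its counts were read from the deposited count table of 46078 genes through its Ensembl identifier. The RNA was that of epithelium washed off the colon of mice aged 2 months, 3 libraries from wild type mice and 3 from mice with the genotype Lingo3-/-, a loss of the leucine-rich repeat protein LINGO3. All mice were naive, with no agent given, and no strain is named. The wash buffer of wild type replicate 1 is labelled as EDTA with DTT and that of the other 5 libraries as EDTA. The protocol shared by all libraries names both, so whether the buffers differed is unclear. Whether each library is a different animal is unstated, so p-values reflect the spread among these libraries, which may be technical.

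Notch is a receptor that is cut inside the membrane when a ligand on a neighbouring cell pulls on it. The freed intracellular part enters the nucleus, joins the DNA-binding protein RBPJ and turns on Hes1, whose product represses Atoh1. In the intestinal crypt a cell with active Notch takes the absorptive path, while a cell that escapes it keeps Atoh1 and makes Dll1 and Dll4. The escaping cell becomes a secretory cell, such as a goblet or enteroendocrine cell. Spdef and Gfi1 act after Atoh1 on the goblet side, and Neurog3 marks the endocrine precursors.

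Counts over genes were 25010618 to 28029583 in the wild type and 11868000 to 17200931 in the knockout libraries. Levels are given as CPM, each library's counts relative to its scaled size. The limit that a count of 0 allows, 3 counts, equalled 0.107 to 0.253 CPM before composition scaling and covers counting error only. Mitochondrial transcripts held 45.3 to 48.4% of the wild type and 34.7 to 36.3% of the knockout counts, so the scaling between libraries bears on every fold change. The targeted gene Lingo3 had 1 to 3 counts in wild type and 0 to 2 in knockout libraries, so it does not check the labels. The 12 epithelial markers were present in every library, with a summed level of 5646 to 6738 CPM in wild type and 6593 to 8041 CPM in knockout. The 12 T cell markers summed to 212 to 236 CPM in wild type and 74.2 to 131.9 CPM in knockout, so lymphocyte RNA was also present. In the test described below, 10 of the 12 fell in the knockout and 0 rose. Over all genes tested, 5.97% fell and 9.43% rose. The fibroblast and muscle list summed to 345 to 998 CPM and 235 to 472 CPM. In such bulk samples, fewer cells of a type and less RNA per cell cannot be told apart.

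Promoter stretches of Atoh1 and Spdef, which rose in the knockout, and of the ligand gene Dll1 are shown because letters known to be bound by Notch pathway factors occur in them. The sequences are from RefSeq on build GRCm38.p6, read 5′ to 3′ on the gene's strand and ending before the RefSeq start. That start is the GENCODE start for Atoh1, lies 60 bases upstream of it for Dll1 and 4 bases inside the gene for Spdef, whose stretch is printed without those 4 bases. In the Atoh1 promoter (chr6:64728875-64729124, plus strand) capitals mark CACGCG or its reverse, a form bound by HES repressors. In the Spdef promoter (chr17:27728956-27729201, minus strand) they mark TGGGAA, the core of the RBPJ site. In the Dll1 promoter (chr17:15376933-15377182, minus strand) they mark CAGCTG, an E-box of the kind bound by factors such as ATOH1.
Atoh1: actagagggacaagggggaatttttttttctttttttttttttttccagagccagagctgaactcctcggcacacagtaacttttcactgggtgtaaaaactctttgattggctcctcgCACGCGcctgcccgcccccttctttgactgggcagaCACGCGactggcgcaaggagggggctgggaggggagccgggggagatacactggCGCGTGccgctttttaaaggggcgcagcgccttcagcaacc
Spdef: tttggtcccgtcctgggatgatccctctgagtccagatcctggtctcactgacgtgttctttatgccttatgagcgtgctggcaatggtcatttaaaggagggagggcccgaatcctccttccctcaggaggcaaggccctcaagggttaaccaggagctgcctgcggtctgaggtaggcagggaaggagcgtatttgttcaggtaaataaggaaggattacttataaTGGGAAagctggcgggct
Dll1: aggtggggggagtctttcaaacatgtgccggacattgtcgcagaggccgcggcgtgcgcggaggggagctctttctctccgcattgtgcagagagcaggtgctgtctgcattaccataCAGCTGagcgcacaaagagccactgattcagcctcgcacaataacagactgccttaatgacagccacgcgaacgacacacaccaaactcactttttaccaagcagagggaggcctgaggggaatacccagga

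The table of promoters matched 9 of the 10 genes, and 4 forms were searched on both strands in the 250 bases before the RefSeq start nearest to the GENCODE start. The RefSeq starts of Notch2, Jag1, Gfi1 and Notch1 lie 11, 124, 231 and 12841 bases inside the GENCODE gene, so the Notch1 window is not at the 5′ end of the gene span given here. The CACGCG form was found 3 times in the Atoh1 promoter, 131, 95 and 41 bases before the RefSeq start. Of 32851 promoter windows in the table, 2502 (7.62%) held it at least once and 74 (0.225%) at least 3 times. Jag1, Dll1, Dll4, Notch2 and Neurog3 held it too, which made 6 of the 9 genes. The RBPJ core TGGGAA lay in the Spdef window, 22 bases before the RefSeq start, as in 21.6% of all windows, and in no other of the 9. The E-box CAGCTG was in Jag1, Dll1 and Neurog3 and in 13.0% of all windows. The N-box CACNAG, another HES form, was in Notch1, Notch2 and Dll4 and in 36.7% of all windows. Each match describes letters in the window and is neither a site nor a cause, and a window without the letters says nothing about the factor.

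Between knockout and wild type, 4 of the 10 genes rose and 0 fell in edgeR's quasi-likelihood test (Benjamini-Hochberg adjusted p below 0.05 among the 16856 genes tested). Among all genes tested, 15.4% changed, 9.43% higher and 5.97% lower. That split, 1589 higher and 1007 lower, depended on the scaling: 92.8% of changed genes were higher with library totals, 45.4% with upper-quartile factors and 16.5% when scaled to the epithelial markers. The 4 that rose were Atoh1 (1.89-fold), Spdef (1.62-fold), Hes1 (1.60-fold) and Jag1 (1.57-fold), so the repressor Hes1 and its target Atoh1 rose together. The CPM of the 2 genotypes did not overlap, with the knockout higher, for 5 of the 9 genes other than Neurog3, which entered the test through the knockout libraries alone, and for 19.7% of all genes tested (16.0% with the knockout lower, 35.6% in either direction). The receptor Notch1 did not pass, with a log2 fold change whose 95% interval ran from -0.14 to 0.28. Dll1, Dll4 and Gfi1 had fold changes above 0 and Notch2 one below 0, and none of them passed the test. Neurog3 did not pass either, and its direction is not read because the filter fixed it. In the authors' deposited table, made with DESeq2, 7 of the 9 listed genes had an adjusted p under 0.05. Atoh1, Spdef, Hes1, Jag1, Dll1 and Gfi1 were higher there and Notch2 was lower. Of all genes of that table, 16.7% passed (10% higher and 6.72% lower). That table and the present test use the same libraries and are not independent of each other.

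**Figure D1:**
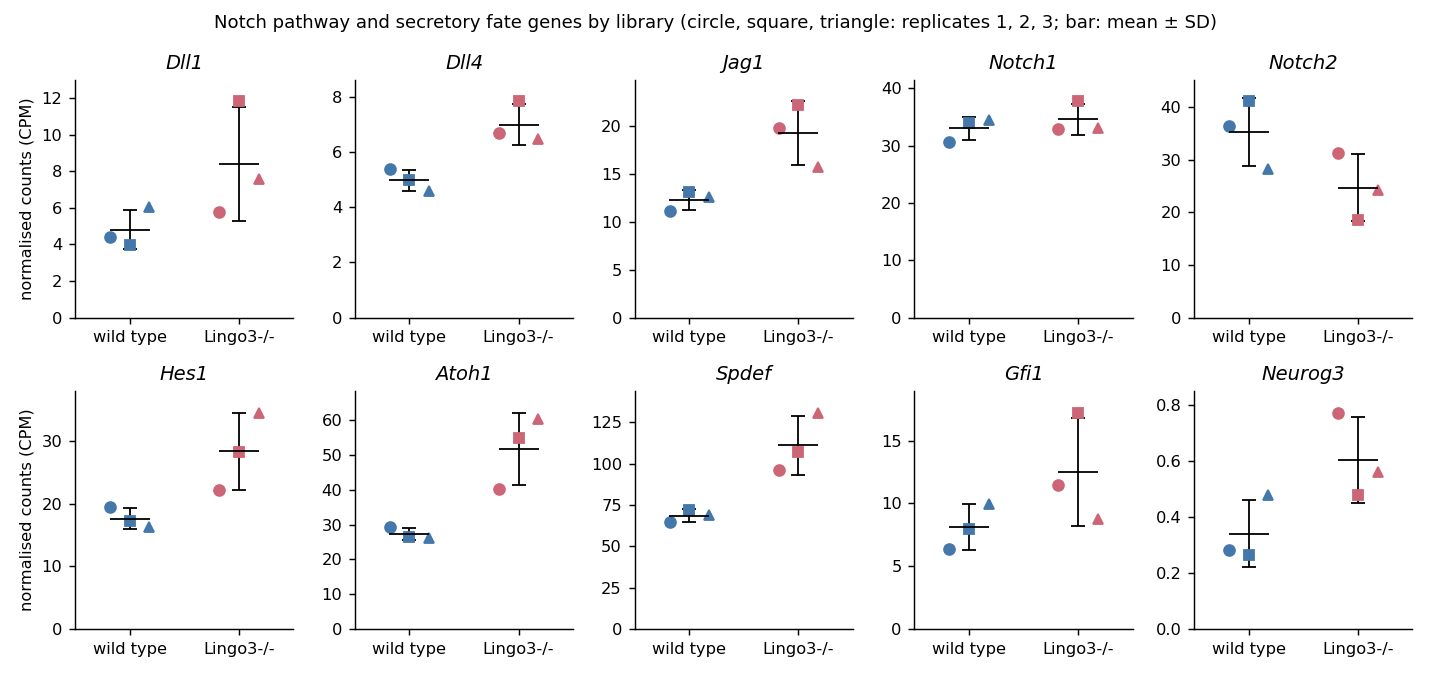
Normalised counts (CPM, linear axis from 0) of the 10 genes in each of the 3 wild type (blue) and 3 Lingo3-/- (red) libraries, with the mean ± SD of each group. The groups are apart for Dll4, Jag1, Hes1, Atoh1 and Spdef and overlap for Dll1, Notch1, Notch2 and Gfi1. Neurog3, which entered the test through the knockout libraries alone, is drawn but its difference is not read.

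Atoh1 (ENSMUSG00000073043, chromosome 6 from 64729125 to 64731245 on the plus strand of GRCm38) encodes the basic helix-loop-helix factor that goblet and enteroendocrine cells require. It stood at 29.3, 26.5 and 26.2 CPM in wild type replicates 1, 2 and 3 and at 40.4, 54.9 and 60.4 CPM in knockout replicates 1, 2 and 3. Every knockout library lay above every wild type library, and the knockout libraries were spread more widely. The mean rose from 27.3 ± 1.72 to 51.9 ± 10.3 CPM (mean ± SD, n = 3). This was 0.92 ± 0.14 on the log2 scale (fold change ± SE, adjusted p = 0.00257 by edgeR). The raw counts behind these levels were 628, 704 and 605 in wild type and 785, 1036 and 756 in knockout, more in the knockout although those libraries were shallower.

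Spdef (ENSMUSG00000024215, chromosome 17 from 27714352 to 27728955, minus strand) encodes an ETS family factor that drives goblet cell maturation. Its level was 64.6, 72.2 and 68.7 CPM in the wild type libraries and 96.0, 107.1 and 130.9 CPM in the knockout libraries, in order of replicate number. The groups did not overlap. The mean rose from 68.5 ± 3.80 to 111.3 ± 17.8 CPM (mean ± SD, n = 3). This was 0.70 ± 0.12 on the log2 scale (fold change ± SE, adjusted p = 0.00373 by edgeR). Knockout replicate 3, the shallowest library, was the highest for Atoh1, Spdef and Hes1 and also had the highest summed level of the epithelial markers, 8041 CPM against 6593 and 6828 CPM in knockout replicates 1 and 2. Without it the log2 fold changes were 0.80 for Atoh1 and 0.57 for Spdef, and both still passed (edgeR adjusted p = 0.0177 and 0.0205).

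Gfi1 (ENSMUSG00000029275, chromosome 5 from 107716657 to 107726036, minus strand) encodes a zinc finger repressor that acts after Atoh1 and holds back the endocrine programme. Its wild type levels were 6.35, 7.98 and 9.96 CPM and its knockout levels 11.5, 17.2 and 8.79 CPM. Knockout replicate 3 fell inside the wild type range, and the log2 fold change of 0.64 (95% interval 0.05 to 1.22, edgeR adjusted p = 0.131) did not pass. Leaving out knockout replicate 2, the highest library, gave 0.34, and leaving out knockout replicate 3 gave 0.83 (edgeR adjusted p = 0.330 and 0.0682). With DESeq2 in place of edgeR it passed (adjusted p = 0.0452). Lymphoid and myeloid cells also express Gfi1. The T cell sum was lower in every knockout library, and the myeloid sum ranged from 47.2 to 216.9 CPM in knockout against 79.1 to 93.8 CPM in wild type. The part of these cells in the Gfi1 values was not tested.

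Neurog3 (ENSMUSG00000044312, chromosome 10 from 62133090 to 62134763, plus strand), the factor of endocrine precursors, was the lowest of the 10 genes. It had 6, 7 and 11 counts in wild type and 15, 9 and 7 counts in knockout, or 0.264 to 0.476 CPM and 0.477 to 0.771 CPM. The 2 ranges met almost exactly. It passed the filter on low counts through the knockout libraries, 3 of which reached the minimum of 0.474 CPM before composition scaling against 0 in wild type, so the direction of its difference was fixed by the filter. Its fold change is therefore not read. Exons of Neurog3 also overlap those of Fam241b on the opposite strand, which had 81 to 118 counts per library. The kit marks strand, but how the counting used it is not given. Likewise, exons of Gfi1, Notch1, Dll1 and Dll4 overlap non-coding genes on the opposite strand and those of Notch2 a gene on the same strand, each with 78 counts or fewer per library.

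Hes1 (ENSMUSG00000022528, chromosome 16 from 30064384 to 30067796, plus strand) encodes the repressor through which Notch blocks Atoh1 in absorptive precursors. It stood at 19.4, 17.2 and 16.3 CPM in the wild type and at 22.3, 28.3 and 34.6 CPM in the knockout libraries. The lowest knockout library was above the highest wild type library by less than the wild type range. The mean rose from 17.7 ± 1.61 to 28.4 ± 6.16 CPM (mean ± SD, n = 3). This was 0.68 ± 0.15 on the log2 scale (fold change ± SE, adjusted p = 0.0133 by edgeR). The call was lost without knockout replicate 3 (0.52, edgeR adjusted p = 0.0514).

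Ratios of 2 genes within a library need no scaling between libraries. Atoh1 had 1.51, 1.54 and 1.61 counts per Hes1 count in wild type and 1.81, 1.94 and 1.75 in knockout, so the groups did not overlap. The difference was 0.24 on the log2 scale, with a 2-sided exact permutation p of 0.1, the smallest that 3 against 3 libraries allow, and an adjusted p of 0.4 over the 8 ratios computed. Spdef had 3.32 to 4.22 counts per Hes1 count in wild type and 3.78 to 4.31 in knockout, which overlap (exact permutation p = 0.8, adjusted p = 0.8). Spdef per Atoh1 was 2.20 to 2.72 in wild type and 1.95 to 2.38 in knockout, which overlap as well (exact permutation p = 0.2, adjusted p = 0.4). For Gfi1 per Atoh1 and Neurog3 per Atoh1 the groups also overlapped (exact permutation p = 0.6 and 0.7, both with an adjusted p of 0.8).

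Jag1 (ENSMUSG00000027276, chromosome 2 from 137081456 to 137116644, minus strand) encodes a Notch ligand of the Jagged type. Its level was 11.1, 13.1 and 12.6 CPM in wild type and 19.8, 22.2 and 15.7 CPM in knockout. All 3 knockout libraries were above the wild type range, with knockout replicate 3 nearest to it. The mean rose from 12.2 ± 1.05 to 19.2 ± 3.31 CPM (mean ± SD, n = 3). This was 0.66 ± 0.14 on the log2 scale (fold change ± SE, adjusted p = 0.00916 by edgeR). The call held without any single library (highest edgeR adjusted p = 0.0371). It was lost when the libraries were scaled to the summed epithelial markers (0.48, edgeR adjusted p = 0.0947), a scaling that gave a median log2 fold change of all genes of -0.21.

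The Delta-like ligands Dll1 and Dll4, which secretory precursors present to their neighbours, had fold changes above 0 and did not pass. Dll1 (ENSMUSG00000014773, chromosome 17 from 15367354 to 15376872, minus strand) stood at 4.39, 3.99 and 6.02 CPM in wild type and at 5.76, 11.8 and 7.59 CPM in knockout. Knockout replicate 1 lay inside the wild type range and knockout replicate 2 far above it. The log2 fold change was 0.81 (95% interval 0.21 to 1.41, edgeR adjusted p = 0.0699). It passed without knockout replicate 1 (1.04, edgeR adjusted p = 0.0171) and was 0.47 without knockout replicate 2. With DESeq2 it passed as well (adjusted p = 0.0186).

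Dll4 (ENSMUSG00000027314, chromosome 2 from 119325784 to 119335962, plus strand) was tighter, with 5.37, 4.97 and 4.59 CPM in wild type and 6.69, 7.84 and 6.47 CPM in knockout. Its groups did not overlap. The log2 fold change was 0.50 (95% interval 0.15 to 0.84, edgeR adjusted p = 0.0564). Dll1 per Dll4 count overlapped between the groups, at 0.803 to 1.31 in wild type and 0.862 to 1.51 in knockout (exact permutation p = 0.5, adjusted p = 0.8).

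Notch1 (ENSMUSG00000026923, chromosome 2 from 26457903 to 26516663, minus strand) had 30.7, 33.9 and 34.4 CPM in wild type and 33.0, 37.7 and 33.1 CPM in knockout. The ranges overlapped, and the log2 fold change was 0.07 (edgeR adjusted p = 0.667). Its sign depended on the scaling, with -0.12 when scaled to the epithelial markers, 0.00 with upper-quartile factors and 0.35 with library totals, where it passed (edgeR adjusted p = 0.0312) while the median of all genes was 0.26. Jag1 per Notch1 count, which no scaling touches, was 0.361, 0.386 and 0.365 in wild type and 0.601, 0.588 and 0.472 in knockout. The groups did not overlap (exact permutation p = 0.1, adjusted p = 0.4).

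Notch2 (ENSMUSG00000027878, chromosome 3 from 98013527 to 98150361, plus strand), the second receptor, was the 1 gene with a fold change below 0 among the 9 other than Neurog3. It stood at 36.5, 41.2 and 28.4 CPM in wild type and at 31.3, 18.6 and 24.3 CPM in knockout. Knockout replicate 1 lay above wild type replicate 3, so the groups overlapped. The log2 fold change of -0.51 (95% interval -0.99 to -0.04) had an edgeR adjusted p of 0.131. In the authors' deposited table it was -0.50 with an adjusted p of 0.0496. DESeq2 run here gave -0.50 with an adjusted p of 0.0510, which did not pass. Of the 6 fits without 1 library, 1 passed, that without knockout replicate 1 (-0.72, edgeR adjusted p = 0.0274). The highest edgeR adjusted p among these 6 was 0.316.

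B cells, stromal and endothelial cells also express Notch2, and the B cell and endothelial lists summed lower in every knockout library. The B cell and plasma cell list summed to 21.4, 51.8 and 27.4 CPM in wild type replicates 1, 2 and 3 and to 13.9, 16.3 and 13.1 CPM in the knockout. The endothelial list summed to 28.9, 27.2 and 18.4 CPM and to 16.4, 13.8 and 15.02 CPM. Within each genotype, wild type replicate 3 and knockout replicate 2 were lowest for Notch2. They were also lowest for the endothelial list, the fibroblast list (345 and 235 CPM) and the myeloid list (79.1 and 47.2 CPM). The epithelial, T cell and B cell lists were not lowest in both of these libraries. Not every marker followed its sum. The endothelial marker Vwf had 2.64 to 2.85 CPM in wild type and 3.04 to 4.13 CPM in knockout. The plasma cell marker Jchain had a log2 fold change of 0.25, and neither gene passed the test. Of the 10 endothelial markers, 5 did not pass the filter and 2 were at 0 counts in at least 1 library, as was 1 of the 8 B cell markers. The part of these cells in the Notch2 values was not tested. Counts of Notch1 per Notch2 count were 0.824 to 1.21 in wild type and 1.05 to 2.02 in knockout (exact permutation p = 0.2, adjusted p = 0.4).

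**Figure D2:**
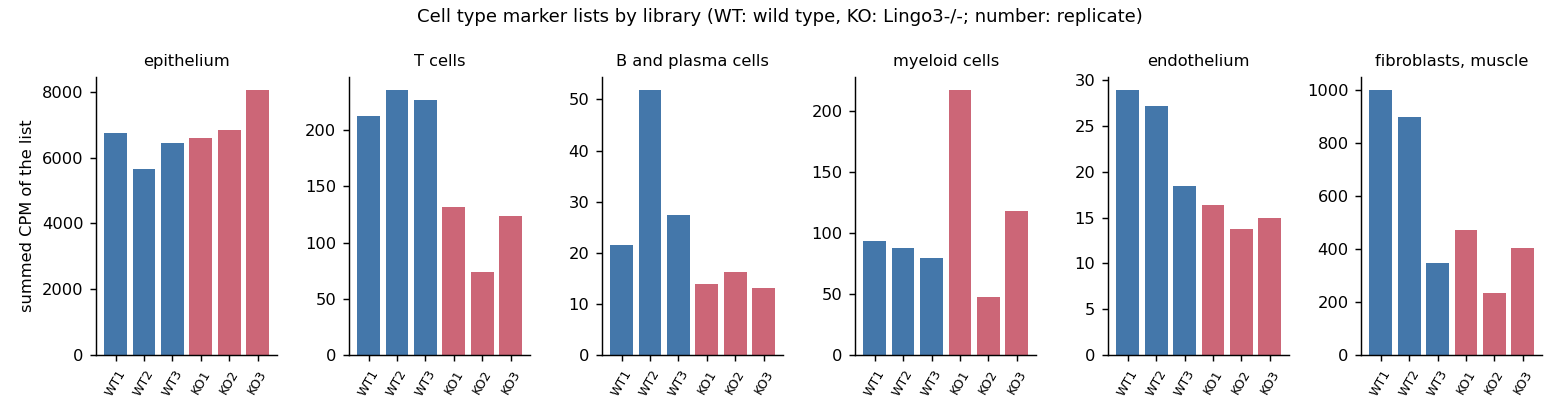
Summed CPM of each cell type marker list (linear axis from 0) in the 3 wild type (WT, blue) and 3 Lingo3-/- (KO, red) libraries. The T cell, B cell and endothelial sums are lower in every knockout library, while the epithelial, myeloid and fibroblast sums overlap between genotypes.

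**Figure D3:**
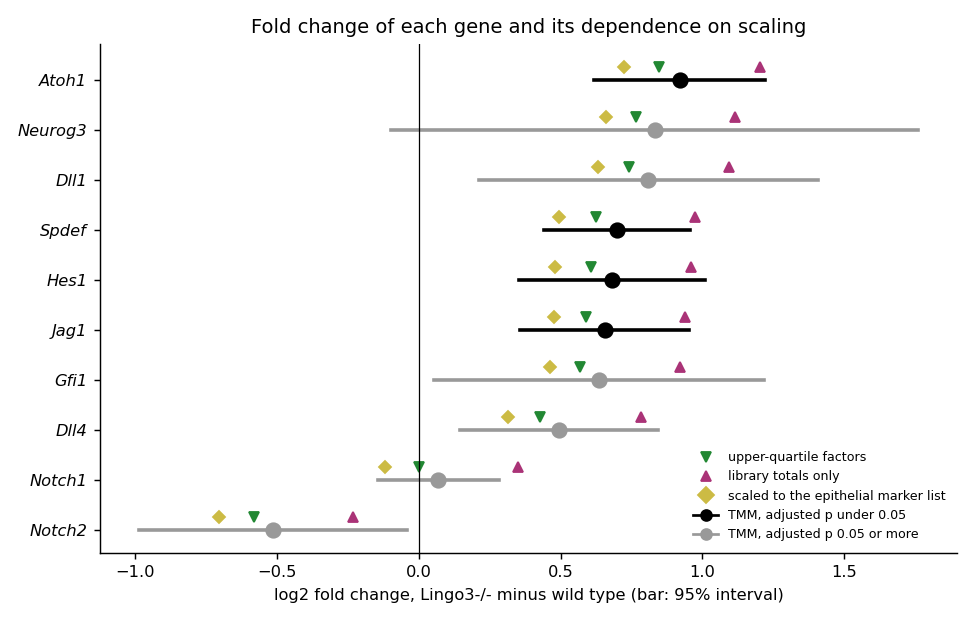
Log2 fold change (Lingo3-/- minus wild type) of each of the 10 genes with its 95% interval after TMM scaling (circles and bars; black where the edgeR adjusted p is under 0.05, grey otherwise) and under 3 other scalings. Atoh1, Spdef, Hes1 and Jag1 stay above 0 under every scaling drawn, while Notch1 lies on both sides of 0, from -0.12 to 0.35.

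Per length of exon, Spdef, Atoh1 and Hes1 were above the ligands and receptors, while Gfi1 lay among them and Neurog3 below them. In wild type, Spdef had 29.7 ± 1.65 CPM per kilobase, Atoh1 12.9 ± 0.812 and Hes1 8.67 ± 0.790 CPM per kilobase (SD, n = 3), and these 3 levels did not overlap among libraries. Notch2 (2.63 to 3.82 CPM per kilobase), Gfi1 (1.99 to 3.13), Notch1 (2.16 to 2.42) and Jag1 (1.90 to 2.25) followed, each overlapping the next. Dll4 (1.19 to 1.39 CPM per kilobase) and Dll1 (0.946 to 1.43) could not be ranked against each other, and Neurog3 was last at 0.203 ± 0.0707 CPM per kilobase (SD, n = 3). In knockout the first 3 kept their order and still did not overlap, at 48.3 ± 7.74, 24.5 ± 4.87 and 13.9 ± 3.02 CPM per kilobase (SD, n = 3). Notch2 ranked 4 in wild type and 7 in knockout, where its range of 1.73 to 2.90 CPM per kilobase overlapped those of its neighbours Notch1 and Dll1.

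**Figure D4:**
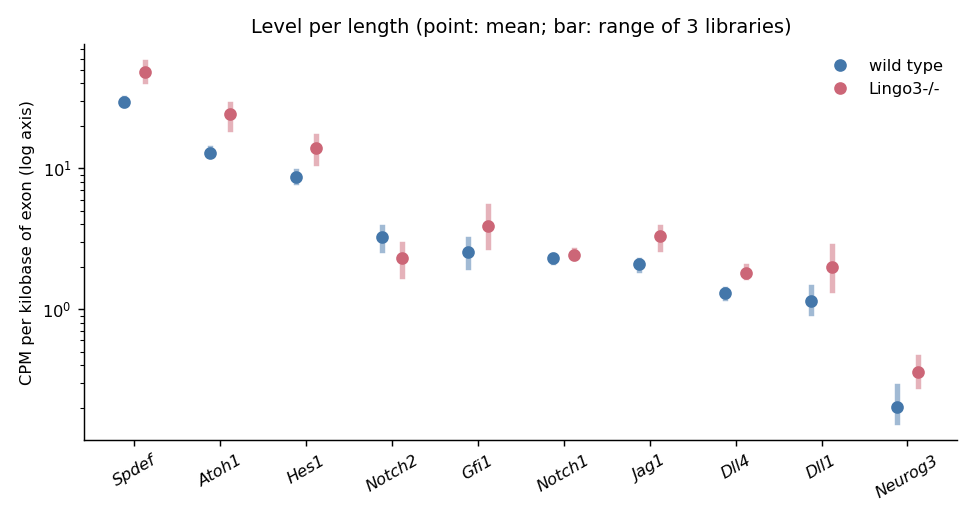
CPM per kilobase of exon (log axis) of the 10 genes, ordered by the wild type mean, in wild type (blue) and Lingo3-/- (red). Points are means and bars the range of 3 libraries, and Spdef, Atoh1 and Hes1 lie apart from the ligands and receptors in both genotypes.

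The rest of the Notch pathway was described with lists of 57 other genes, of which 50 passed the filter. Of these 50, 4 rose, 7 fell and 39 did not pass, with a median log2 fold change of 0.00. Over all genes tested 9.43% were higher and 5.97% lower, with a median of -0.03. The share of higher genes was thus near that of all genes, and the share of lower genes was above it. These counts rested on the libraries and the scaling. No gene rose and 1 fell without wild type replicate 3, knockout replicate 2 or knockout replicate 3. In those fits 936, 898 and 711 of all genes rose and 743, 473 and 413 fell. Without wild type replicate 2, 2 rose and 2 fell, beside 1091 and 581 of all genes. Without wild type replicate 1, 5 rose and 4 fell, beside 1677 and 855. With library totals 18 rose and 1 fell, beside 5419 and 420 of the 16856 genes tested. With upper-quartile factors 0 rose and 10 fell, beside 1137 and 1365. DESeq2 put 4 higher and 3 lower, beside 1508 and 1021 of all genes.

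Among the genes that help a ligand signal, Neurl1a and Mib1, whose E3 ligases drive the uptake of ligands into the sending cell, rose by 0.69 and 0.30 on the log2 scale (edgeR adjusted p = 0.0479 and 0.0421). Mib2, a relative of Mib1, fell by 0.34 (edgeR adjusted p = 0.0477). Mfng, a fringe enzyme that adds sugars to the receptor, fell by 0.89 (edgeR adjusted p = 0.0497), and its relative Lfng did not pass (0.04). The ligand Jag2 (0.02) and the receptor Notch3 (0.27) did not pass either. Of the 10 receptor proteases, only the gene of the convertase Furin passed (-0.37, edgeR adjusted p = 0.0403), beside 15.4% of all genes tested. Furin cuts the receptor on its way to the surface. Adam10, whose enzyme makes the ligand-dependent cut, had 0.18 and did not pass.

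Of 11 turnover genes, 2 fell and 1 rose, beside 5.97% lower and 9.43% higher over all genes tested. Dtx1, a Deltex E3 ligase that T cells also express, fell from 12.1 ± 1.33 to 5.64 ± 1.58 CPM (mean ± SD, n = 3). This was -1.11 ± 0.20 on the log2 scale (fold change ± SE, adjusted p = 0.00490 by edgeR). It passed without any single library (highest edgeR adjusted p = 0.0236) and under every scaling tried, and the T cell sums were lower in the same 3 knockout libraries. The part of T cells in this fall was not tested. Its relative Dtx4 rose by 0.47 and Numbl, a relative of the Notch inhibitor Numb, fell by 0.93 (edgeR adjusted p = 0.0323 and 0.0381). In the nuclear complex the coactivator genes Maml2 and Ep300 fell by 0.82 and 0.34, and the corepressor gene Ctbp1 rose by 0.35 (edgeR adjusted p = 0.0281, 0.0444 and 0.0296). Rbpj itself did not pass, with 21.99 ± 1.21 CPM in wild type and 21.3 ± 0.990 CPM in knockout (SD, n = 3; log2 fold change -0.05, edgeR adjusted p = 0.777).

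Hes1 was the best measured Notch target of this fraction. Hes5, Hes7, Hey1 and Hey2 had 0 to 5 counts per library and Heyl 0 to 19, and none of these 5 passed the filter. A difference was not detectable for them at this depth. Nrarp, a target that feeds back on Notch, had 11, 22 and 14 counts in wild type and 21, 12 and 2 counts in knockout (log2 fold change 0.03, edgeR adjusted p = 0.978), with wide spread in the knockout.

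The other fate factors were split by branch into 2 lists. Of 14 factors of the goblet side or shared by secretory cells, 1 (Gfi1b) entered the test through the knockout libraries alone. Of the other 13, 4 rose, 0 fell and 9 did not pass, with a median log2 fold change of 0.24, beside 9.43% higher, 5.97% lower and a median of -0.03 over all genes tested. Creb3l4, a membrane-bound factor of the endoplasmic reticulum, rose from 20.2 ± 0.601 to 38.3 ± 2.81 CPM (mean ± SD, n = 3). This was 0.92 ± 0.10 on the log2 scale (fold change ± SE, adjusted p = 0.000785 by edgeR). The forkhead genes Foxa2 and Foxa3 rose by 0.96 and 0.79 (edgeR adjusted p = 0.0105 and 0.00214), and Sox9, which crypt base and secretory cells use, by 0.77 (edgeR adjusted p = 0.00963). Creb3l4, Foxa2 and Foxa3 passed without any single library, and Sox9 was lost without knockout replicate 3 (edgeR adjusted p = 0.0506). Gfi1b, a relative of Gfi1 found in tuft cells, had 4 to 7 counts in wild type and 6 to 17 in knockout. Its direction was fixed by the filter, so its call (log2 fold change 1.49, edgeR adjusted p = 0.0370) is left out of the 4. Klf4 (-0.21), Foxa1 (0.03) and the secretory stress factor gene Xbp1 (0.35, edgeR adjusted p = 0.0601) did not pass.

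Of 10 tested factors of the endocrine and tuft branches, 2 fell, 0 rose and 8 did not pass. The list median was -0.45, and 9 of the 10 fold changes were below 0. Over all genes tested 5.97% fell and 52.8% of fold changes were below 0. Neurod1, which acts after Neurog3 in endocrine cells, fell from 4.15 ± 0.229 to 2.33 ± 0.622 CPM (mean ± SD, n = 3). This was -0.85 ± 0.23 on the log2 scale (fold change ± SE, adjusted p = 0.0254 by edgeR). The endocrine factor gene Rfx6 fell by 0.90 (edgeR adjusted p = 0.0474). With single libraries left out, Neurod1 passed only without knockout replicate 3 (edgeR adjusted p = 0.0288) and Rfx6 only without knockout replicate 1 (edgeR adjusted p = 0.0246). The tuft cell factor gene Pou2f3 had 0.11. Whether the goblet and endocrine lists differed from each other was not tested.

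**Figure D5:**
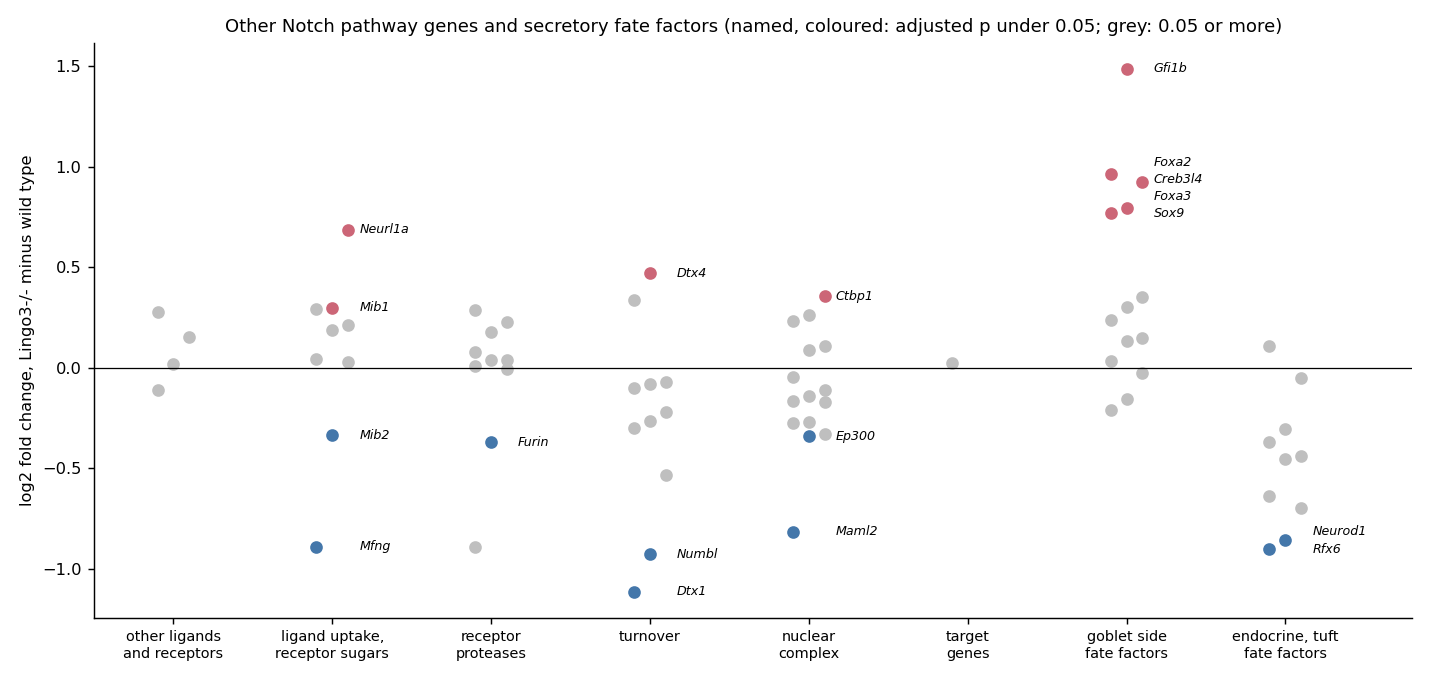
Log2 fold change (Lingo3-/- minus wild type) of every tested gene of the other Notch pathway lists and of the secretory fate lists, 1 column per list. Coloured and named genes had an edgeR adjusted p under 0.05 (red higher, blue lower) and grey ones did not, with 4 of 13 goblet side factors higher, besides Gfi1b, which entered through the knockout libraries alone, and 2 of 10 endocrine and tuft factors lower.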

How the data were processed

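RNA-seq of 6 libraries, 3 per genotype, was analysed. The authors deposited raw read counts per gene, and per the submitters' processing notes Trimmomatic 0.39, STAR, HTSeq and DESeq2 with build GRCm38 were used. For the other versions, the annotation release and the strand setting, nothing is given in the sources used here. Their comparison table, per the file headers, holds log2 fold changes, p-values and normalised counts, a signal of counts times 1 factor per library that the authors computed. HTSeq summary lines, which held 53.6 to 60.1% of all entries counted per library, were left out.

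From the raw counts, edgeR 4.0.16 (R 4.3.3, TMM factors, robust quasi-likelihood test, Benjamini-Hochberg adjustment, threshold 0.05) was run on the 16856 genes that passed its filter (minimum count 10, minimum total 15). CPM and CPM per kilobase of exon use the same TMM factors. Of 46078 gene identifiers, 45143 matched GENCODE M21 on GRCm38. Within-library ratios were tested with 2-sided exact permutation tests (R 4.3.3). Alternatives were other scalings and filters, DESeq2 1.42.0, limma-voom 3.58.1, a replicate block and leaving out each library. The edgeR fit was tested on simulated counts in which all libraries shared 1 mean profile apart from a set of changed genes. The simulation held no shift in composition between genotypes, so it cannot judge the choice of scaling. Same-numbered libraries showed no sign of pairing, which 3 libraries per genotype cannot exclude. No 2 libraries were copies of each other.

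The genes and lists were chosen with earlier results of these data known, and the promoter forms after the values were seen. Named were all 10 genes, every list gene past the threshold where a list had 6 or fewer, and 10 that did not pass but were given by name. Pou2f3, Hes5, Hes7, Hey2 and Heyl were named after their values were seen.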

Additional observations from a re-analysis of the deposited data

How the results depend on the processing

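Atoh1 and Spdef kept their direction and call under every alternative run. Over all alternatives, 151 of the fold changes of the 10 genes kept direction and side of the threshold. Another 13 newly passed, 2 were lost and 2 changed sign. These counts include Neurog3, whose direction was fixed by the filter. They also include the looser threshold of 0.1, which reuses the main fit, so no direction could change there. Of the 56 alternative values of the ratios, those of the replicate block equal the main value by construction and test nothing. The others, each without 1 library, were held against the replicate SD. Leaving out 1 of 3 libraries cannot move a ratio that far, so these values test nothing either. The causes of the changes below were not tested. With library totals alone, 5839 genes changed in place of 2596, 5419 of them higher and 420 lower. Of the 10 genes, 8 were higher, and Gfi1 (0.92), Dll1 (1.09), Dll4 (0.78) and Notch1 (0.35) newly passed. Under this scaling 18 other Notch pathway genes were higher and 1 lower. Other secretory factors numbered 9 higher and 0 lower, with Gfi1b, whose direction was fixed by the filter, among the 9. Rbpj (0.24) and Klf4 (0.078) changed sign. Scaled to the epithelial markers, Jag1 (0.48) was lost. Of other Notch genes 0 were higher and 11 lower, beside 353 and 1791 of all genes. That scaling changed the sign of Notch1 (-0.12), Jag2 (-0.17), Nrarp (-0.15), Lfng (-0.16), Adam10 (-0.0038) and Foxa1 (-0.15). Upper-quartile factors gave 0 other Notch genes higher and changed the sign of Notch1 (-0.00027), Jag2 (-0.049), Nrarp (-0.036), Lfng (-0.029) and Foxa1 (-0.037). Nuclear protein-coding genes alone did so for Jag2 (-0.016), Nrarp (-0.0070) and Foxa1 (-0.0013), a mean CPM of at least 1 for Jag2 (-0.0015) and limma-voom for Nrarp (-0.22). DESeq2 put Gfi1 (0.65) and Dll1 (0.82) past the threshold, with 3 other Notch genes and 1 secretory factor lower, and limma-voom gave 4 and 1. Without a filter Gfi1 (0.65), Dll1 (0.82) and Notch2 (-0.51, the 1 gene lower) passed. At an adjusted p under 0.1, 3942 genes changed, Dll1 (0.81) and Dll4 (0.50) passed and 11 other Notch genes were lower.

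Same-numbered libraries correlated at -0.019, -0.12 and -0.12 in their deviations from the group means, and no library correlated best with its own number. These values show no pairing by number, but 3 libraries per group cannot exclude it. With the replicate block, 1193 of all genes were higher and 868 lower. Of other Notch genes 1 was higher and 2 lower, Nrarp changed sign (-0.090), and 4 of the 10 genes were higher and 0 lower.

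With 1 library left out at a time, 1124 to 2686 genes changed, the lowest count being that without knockout replicate 3. Leaving out knockout replicate 2 gave 1371, and leaving out replicate 2 or 3 of the wild type gave 1672 and 1679. Of the 10 genes, 3 to 5 were higher and 0 to 1 lower. Other Notch genes numbered 0 to 5 higher and 1 to 7 lower, and other secretory factors, Gfi1b included, 3 to 5 higher and 0 to 2 lower. Fold changes ran from 0.52 to 0.84 for Hes1, -0.72 to -0.34 for Notch2, 0.47 to 1.04 for Dll1, -0.080 to 0.012 for Rbpj, -0.21 to 0.16 for Jag2, -0.31 to 0.56 for Notch3, -0.58 to 0.39 for Nrarp and -0.044 to 0.14 for Lfng. Depth limits Neurog3, Nrarp, Gfi1b and the Hes and Hey genes near the floor of 3 counts.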
